A study of Gallus gallus with 12 samples.

Results

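The B cell and leukocyte kinase genes were 9 genes of the array, CD79B, CD72, PAX5, BLNK, SYK, BTK, PIK3CD, EDG6 and RGS19. They were taken by symbol from the names of the array's features, from a list of genes drawn up with earlier results of these data known, and every feature with such a symbol was kept. This gave 11 features out of 37374, because CD72 was represented by 3 of them. All 9 symbols were found, no member was filtered out, and each member feature summarised 3 probes.

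The samples were 12 utero-vaginal junctions (UVJ), the segment of the hen's oviduct where mated hens store sperm in tubular glands, and 1 array was hybridised per White Leghorn hen. The 4 mated hens were each paired with 1 male. The 4 SF-infused hens were inseminated in the cloaca with sperm-free seminal fluid (SF) pooled per male from the males used for mating. The 4 control hens received neither treatment, and tissue was taken 24 h after either treatment. Whole tissue was used, so that epithelium, glands, stroma and resident leukocytes were measured together.

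B lymphocytes recognise antigen through a surface immunoglobulin that is coupled to the signalling chains CD79A and CD79B. When antigen is bound, the kinase SYK docks on these chains, the adaptor BLNK brings BTK and phospholipase C gamma together, and PI3-kinase delta, whose catalytic subunit is PIK3CD, supplies the membrane lipid that recruits BTK. In birds B lymphocytes arise in the bursa of Fabricius, and lymphocytes are resident in the oviduct mucosa.

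The names need care in the chicken. The feature called CD72 below carries an accession that the current RefSeq gene table (GRCg7b) also names CD72. The array's other features with that symbol share a single accession, which the table now names CD72L1, a neighbouring gene with a similar name, and they are called the first and the second CD72L1 feature. Near-identical copies could share signal. The accession of the BLNK feature is named SH2D6 in that table with BLNK as an older name, so values given for BLNK may belong to SH2D6. EDG6 is the older symbol of S1PR4. In all, 10 of the 11 features were matched to the table by accession, EDG6 being the exception.

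Values are log2 intensities after the authors' RMA normalisation, and a difference of 1 is a doubling. A feature was called at an unadjusted p under 0.05 in limma, the level the study treated as suggestive, and no member passed after Benjamini-Hochberg adjustment over all 37374 features. The study also set a stricter threshold by permuting the group labels, which was not applied here. The smallest unadjusted limma p of a member was 0.00437, for RGS19 in mating versus control. That is above the approximate nominal p to which the study equates its permutation threshold. With 4 hens per group the smallest two-sided p that an exact permutation test allows is 0.0286. Replicate arrays correlated at 0.940 to 0.990 in mated hens, 0.961 to 0.986 in SF-infused hens and 0.966 to 0.988 in control hens. The position of an array on its slide followed the groups, so position and treatment cannot be told apart.

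In mating versus control, PIK3CD, RGS19 and CD72 rose, which is 3 of the 11 member features against 2.22% of all features called in either direction and 1.35% called as higher. The differences were 0.79 (SE 0.25), 0.55 (SE 0.16) and 0.76 (SE 0.29). In SF-infusion versus control, PIK3CD alone among the members was called, at 0.84 (SE 0.25), against a background of 6.47% called and 4.15% called as higher. No member was called as lower, where 0.867% of all features were in mating versus control, 2.32% in SF-infusion versus control and 2.66% in mating versus SF-infusion. In mating versus SF-infusion, EDG6, CD72 and PAX5 were higher in mated hens, by 1.00 (SE 0.35), 0.95 (SE 0.29) and 0.75 (SE 0.24), against a background of 4.7% called and 2.04% called as higher. These features were dim, at percentiles 25.7, 27.1 and 10.7 of all features by mean level. The background is not matched for level, and a smaller share was called among brighter features. The adjusted p of the members was 0.9999 throughout in mating versus control, at least 0.735 in SF-infusion versus control and at least 0.855 in mating versus SF-infusion. The smallest adjusted p over all features was 0.912, 0.735 and 0.641 in the same order of comparisons, and 828, 2417 and 1756 features had an unadjusted p under 0.05. The first and second comparisons share their control hens.

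**Figure D1:**
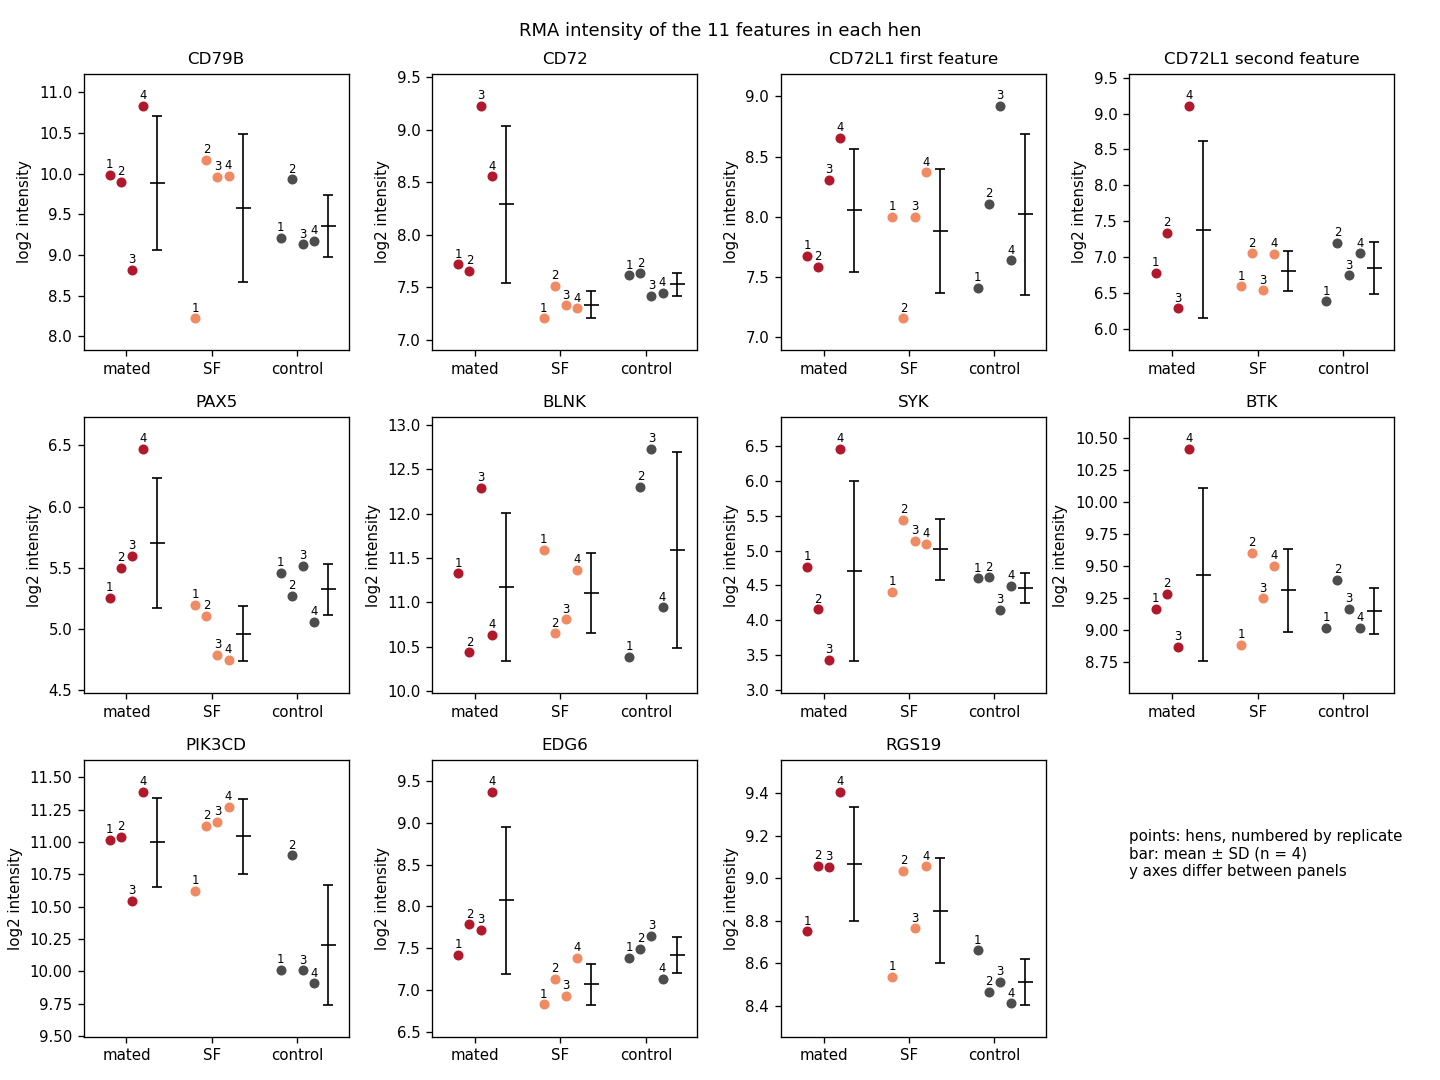
Log2 RMA intensity (y axis, differing between panels) of the 11 features in each mated, SF-infused (SF) and control hen (x axis), with points numbered by replicate and bars giving the mean ± SD (n = 4). RGS19 and CD72 did not overlap between mated and control hens, and mated hen 4 held the highest point in 8 of the 11 panels.

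The receptor level was represented by CD79B, which carries the immunoreceptor tyrosine motif of the B cell receptor. Its log2 level was 9.98, 9.90, 8.82 and 10.84 in mated hens 1 to 4. It was 8.22, 10.17, 9.96 and 9.97 in SF-infused hens and 9.21, 9.93, 9.13 and 9.17 in control hens. The groups overlapped completely, SF-infused hen 1 lay more than a log2 unit below the rest of its group, and control hen 2 lay above the other controls. CD79B averaged 9.88 ± 0.83 in mated hens, 9.58 ± 0.91 in SF-infused hens and 9.36 ± 0.38 in control hens (SD, n = 4 each). No comparison was called: the difference was 0.52 for mating versus control (exact permutation p = 0.343), 0.22 for SF-infusion versus control (exact p = 0.657) and 0.30 for mating versus SF-infusion (exact p = 0.657), each with an SE of 0.48.

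CD72 is a surface protein that dampens B cell receptor signalling in mammals. Its log2 level was 7.72, 7.65, 9.23 and 8.55 in mated hens. In SF-infused hens it was 7.20, 7.51, 7.33 and 7.30, and in control hens 7.61, 7.63, 7.42 and 7.45. Mated hens 3 and 4 were far above every other hen, whereas mated hens 1 and 2 exceeded the highest control by less than 0.1. The mated hens thus overlapped with neither other group. Members whose mated hens all lay above the controls numbered 2, CD72 and RGS19, against 0.843% of all features, with a further 0.492% separated the other way (1.34% in all). Those whose mated hens all lay above the SF-infused hens numbered 3, CD72, EDG6 and PAX5, against 1.54% of all features, with 1.5% the other way (3.04% in all). SF-infused and control hens overlapped for every member, whereas they were separate for 3.84% of all features, 2.47% higher and 1.38% lower in SF-infused hens.

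CD72 averaged 8.29 ± 0.75 in mated hens and 7.53 ± 0.11 in control hens (SD, n = 4 each), a 1.70-fold difference with a 95% confidence interval of 0.12 to 1.40 on the log2 scale (limma p = 0.0243, exact permutation p = 0.0286, the smallest possible). The call was lost without control hen 3 (0.73), control hen 4 (0.73) or mated hen 4 (0.67). The difference was smallest without mated hen 3, at 0.45 and still called, and leaving out each hen in turn gave 0.45 to 0.97. It was also lost with limma array weights, which gave mated hens 3 and 4 weights of 0.404 and 0.648, the difference then being 0.38. Against SF-infused hens, at 7.33 ± 0.13, the difference of 0.95 (interval 0.31 to 1.60, limma p = 0.00746, exact permutation p = 0.0286) kept its call whichever hen was left out, between 0.64 and 1.17. SF-infusion versus control gave -0.19 (SE 0.29, exact permutation p = 0.0857).

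The CD72L1 features behaved differently from each other and from CD72. The first had 7.68, 7.58, 8.30 and 8.65 in mated hens, 8.00, 7.16, 8.00 and 8.37 in SF-infused hens and 7.41, 8.11, 8.92 and 7.64 in control hens. The second had 6.79, 7.34, 6.29 and 9.11 in mated hens, 6.59, 7.05, 6.54 and 7.05 in SF-infused hens and 6.38, 7.20, 6.75 and 7.05 in control hens. The highest hen was control hen 3 for the first feature and mated hen 4 for the second, and all groups overlapped for both. In mating versus control the differences were 0.03 (SE 0.37, exact permutation p = 0.971) and 0.54 (SE 0.49, exact p = 0.543), neither called. Without mated hen 4 the second became -0.04.

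PAX5 is the transcription factor that commits lymphoid precursors to the B lineage and maintains B cell identity. It was a dim feature, at percentile 10.7 of all features by mean level. Each array has a single summary value for its random-sequence control probes, between 3.81 and 3.95 on the log2 scale, and PAX5 exceeded it on every array. Features can lie below that value, as RAG1 did at 2.99 to 3.36, so exceeding it does not show detection. The PAX5 level was 5.26, 5.50, 5.59 and 6.47 in mated hens, 5.19, 5.10, 4.79 and 4.74 in SF-infused hens and 5.46, 5.27, 5.51 and 5.05 in control hens. All 4 mated hens were above all 4 SF-infused hens, with a gap of less than 0.1 between the nearest hens, while control hens overlapped with both.

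PAX5 averaged 5.70 ± 0.53 in mated hens and 4.96 ± 0.23 in SF-infused hens (SD, n = 4 each), a 1.68-fold difference (log2 0.75, interval 0.23 to 1.27, limma p = 0.00911, exact permutation p = 0.0286). This call held whichever hen was left out, between 0.49 and 0.90, the lowest value being that without mated hen 4. With controls at 5.32 ± 0.21, mating versus control gave 0.38 (SE 0.24, exact permutation p = 0.229) and SF-infusion versus control gave -0.37 (SE 0.24, exact p = 0.0857), neither called. Fewer cells of a type and less RNA per cell cannot be told apart in whole tissue, here or for any member below.

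The adaptor BLNK had the widest spread among control hens. Its log2 level was 11.33, 10.44, 12.29 and 10.64 in mated hens, 11.59, 10.65, 10.81 and 11.37 in SF-infused hens and 10.39, 12.30, 12.73 and 10.94 in control hens. Control hens 2 and 3 and mated hen 3 were high, and no group stood apart. The feature was not called: mating versus control gave -0.42 (exact permutation p = 0.571), SF-infusion versus control -0.49 (exact p = 0.429) and mating versus SF-infusion 0.07 (exact p = 1), each with an SE of 0.54.

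SYK, the kinase that binds the phosphorylated receptor chains, was the dimmest member, at percentile 7.83. It had 4.76, 4.16, 3.43 and 6.47 in mated hens, 4.41, 5.44, 5.14 and 5.10 in SF-infused hens and 4.60, 4.62, 4.15 and 4.50 in control hens. The lowest value, in mated hen 3, was not above the random-sequence value of its array, and the highest, in mated hen 4, was more than a log2 unit above any other hen. BTK, the Tec family kinase downstream of it, had 9.16, 9.28, 8.87 and 10.42 in mated hens, 8.88, 9.60, 9.24 and 9.50 in SF-infused hens and 9.01, 9.39, 9.16 and 9.02 in control hens. Mated hen 4 again lay above all others and mated hen 3 below all others. Neither kinase was called: mating versus control gave 0.24 (SE 0.52, exact permutation p = 0.771) for SYK and 0.29 (SE 0.29, exact p = 0.629) for BTK. SF-infusion versus control gave 0.56 (SE 0.52, exact p = 0.114) for SYK and 0.16 (SE 0.29, exact p = 0.429) for BTK. Without mated hen 4 the SYK difference in mating versus control became -0.35 and that of BTK -0.04, neither called. In mating versus SF-infusion SYK passed the threshold as lower in mated hens without mated hen 4, at -0.91, against -0.32 with all hens.

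PIK3CD, the leukocyte-enriched catalytic subunit of class I PI3-kinase, was the member called in both comparisons with control. Its log2 level was 11.02, 11.04, 10.54 and 11.39 in mated hens and 10.62, 11.13, 11.16 and 11.27 in SF-infused hens. In control hens it was 10.01, 10.90, 10.01 and 9.91. Controls 1, 3 and 4 lay below every treated hen, and control 2 alone overlapped, lying above mated hen 3 and SF-infused hen 1.

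PIK3CD averaged 10.997 ± 0.347 in mated hens, 11.045 ± 0.290 in SF-infused hens and 10.205 ± 0.464 in control hens (SD, n = 4 each). Mating versus control gave 1.73-fold (log2 interval 0.24 to 1.34, limma p = 0.00869) and SF-infusion versus control 1.79-fold (interval 0.29 to 1.39, limma p = 0.0062), with an exact permutation p of 0.0571 in each case. Both kept the limma call whichever hen was left out, at 0.66 to 1.02 for mating and 0.74 to 1.07 for SF-infusion. Mated and SF-infused hens were not distinguished, with a difference of -0.05 and an interval of -0.59 to 0.50 (exact permutation p = 0.800), which leaves room for differences in either direction.

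EDG6, or S1PR4, is a receptor for sphingosine-1-phosphate found mainly on leukocytes in mammals. Its log2 level was 7.43, 7.79, 7.72 and 9.37 in mated hens, 6.83, 7.13, 6.94 and 7.39 in SF-infused hens and 7.39, 7.49, 7.65 and 7.14 in control hens. Mated hens did not overlap with SF-infused hens, although mated hen 1 and SF-infused hen 4 were less than 0.1 apart, and mated hen 4 was more than a log2 unit above all others. EDG6 averaged 8.07 ± 0.88 in mated hens and 7.07 ± 0.24 in SF-infused hens (SD, n = 4 each), a 2.00-fold difference (log2 interval 0.23 to 1.77, limma p = 0.016, exact permutation p = 0.0286). Without mated hen 4 it was still called, at 0.57, the lowest of the leave-one-out values, which reached 1.22. Controls averaged 7.42 ± 0.22, and mating versus control gave 0.66 (SE 0.35, exact permutation p = 0.114; 0.23 without mated hen 4) and SF-infusion versus control -0.34 (SE 0.35, exact p = 0.0857), neither called.

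RGS19 speeds the return of inhibitory G alpha subunits to their inactive state. Its log2 level was 8.75, 9.06, 9.06 and 9.41 in mated hens, 8.54, 9.04, 8.77 and 9.06 in SF-infused hens and 8.66, 8.47, 8.51 and 8.41 in control hens. Every mated hen was above every control hen, and 3 of the 4 SF-infused hens were too, SF-infused hen 1 lying within the control range. RGS19 varied least among the members, with a range of 1.00 over the 12 hens. It averaged 9.07 ± 0.27 in mated hens, 8.85 ± 0.25 in SF-infused hens and 8.51 ± 0.11 in control hens (SD, n = 4 each).

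Mating versus control gave a 1.47-fold difference for RGS19 (log2 interval 0.21 to 0.90, limma p = 0.00437, exact permutation p = 0.0286), which kept its call whichever hen was left out, at 0.44 to 0.66. SF-infusion versus control gave 0.34 (interval -0.006 to 0.68, limma p = 0.0535, exact permutation p = 0.0571) and passed the limma threshold without SF-infused hen 1 (0.44), control hen 1, mated hen 1 or mated hen 4. Mating versus SF-infusion gave 0.22 (SE 0.16, exact permutation p = 0.257), so the treatments were not shown to differ for this gene.

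**Figure D2:**
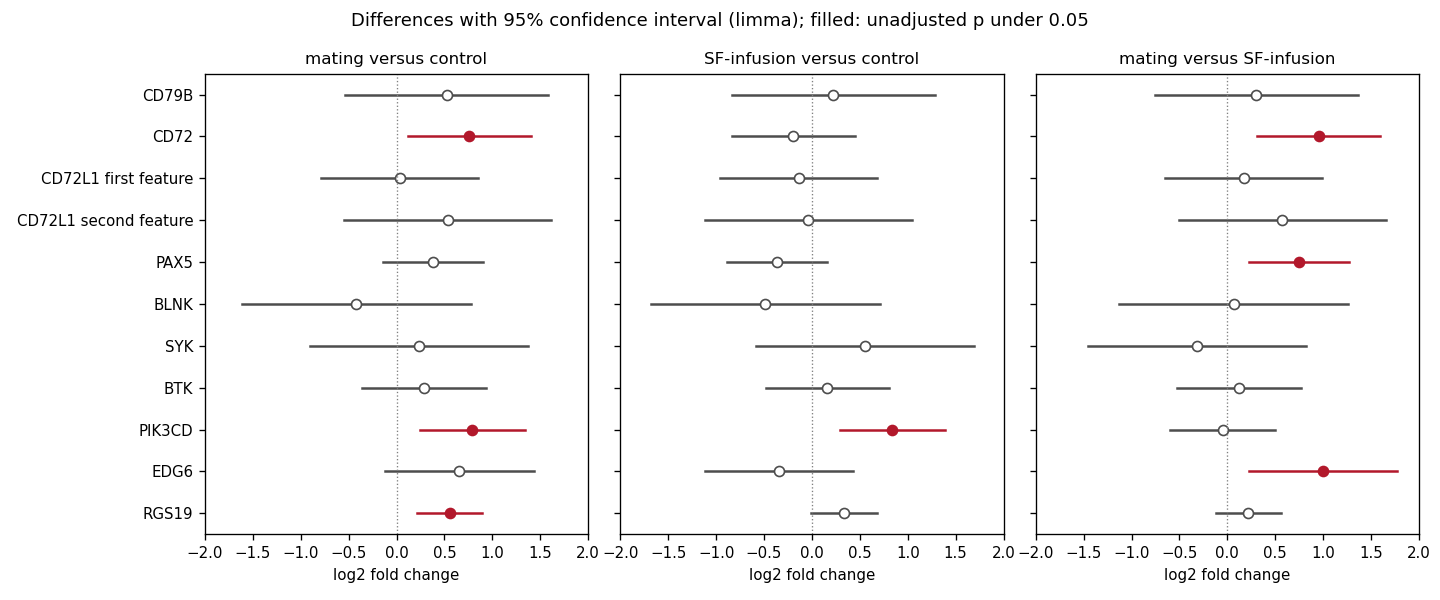
Log2 fold change (x axis) of the 11 features (rows) in each of the 3 comparisons (panels), with 95% confidence intervals from limma; filled red symbols have an unadjusted p under 0.05. PIK3CD was called in mating versus control at 0.79 and in SF-infusion versus control at 0.84, whereas EDG6, CD72 and PAX5 were called in mating versus SF-infusion at 1.00, 0.95 and 0.75.

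Over the 11 features, 10 differences were above 0 in mating versus control, where 50.2% of all features were, BLNK being the exception. The members' median was 0.52, and that of all features was 0.0007. Without mated hen 4, 6 of the 11 were above 0 and the median was 0.13, SYK, BTK and both CD72L1 features turning negative. In SF-infusion versus control 5 of the 11 were above 0, with a median of -0.04, where 51.7% of all features were above 0 and the median was 0.0089. Leaving out each hen in turn moved this median between -0.16 and 0.15. In mating versus SF-infusion 9 of the 11 were above 0, with a median of 0.22, where 48.5% of all features were above 0 and the median was -0.0068. Without mated hen 4, 5 of the 11 were above 0 and the median was -0.0041. The features share the same hens and are not independent of each other.

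Much of the variation lay between single hens. Mated hen 4 had the highest level of the 12 for 8 of the 11 features, namely CD79B, the second CD72L1 feature, PAX5, SYK, BTK, PIK3CD, EDG6 and RGS19, whereas it was highest for 10.6% of all features. Mated hen 3, which was highest for 15.8% of all features, was highest for CD72 and lowest for the second CD72L1 feature, SYK and BTK. SF-infused hen 1 was lowest for CD79B, CD72 and EDG6, and control hen 4 was lowest for PIK3CD and RGS19.

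Mated hen 4 also had the highest leukocyte marker scores. The pan-leukocyte score, the mean of 10 genes centred on their own mean over hens, was -0.11, 0.14, -0.77 and 1.39 in mated hens, -0.31, 0.45, 0.05 and -0.12 in SF-infused hens and -0.10, 0.17, -0.57 and -0.22 in control hens. PTPRC, the common leukocyte antigen CD45, lay between 10.08 and 12.53, its highest value being in mated hen 4. The T lymphocyte score over 15 genes reached 1.28 in that hen and lay between -0.60 and 0.47 in the others, and the macrophage and heterophil score over 12 genes reached 1.23 and lay between -0.53 and 0.18 in the others. The B lymphocyte score over 11 genes, 4 of whose symbols are members, was 0.03, -0.07, 0.11 and 0.49 in mated hens, -0.36, 0.02, 0.02 and -0.14 in SF-infused hens and -0.14, 0.09, 0.05 and -0.10 in control hens. In the B lymphocyte score the CD72 symbol was represented by the first CD72L1 feature, and its BLNK feature may belong to SH2D6. Mated hen 4 was thus the highest for each of these scores, and the groups overlapped in all of them. Not every gene of a score peaked in that hen. The exceptions were CD44 and PTPN6 in the pan-leukocyte score and TXK in the T lymphocyte score. In the macrophage and heterophil score they were CSF3R, MPO, CTSG and MMP9. In the B lymphocyte score they were EBF1, POU2AF1, BLNK, the first CD72L1 feature, IGJ and TNFRSF13C.

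BTK, SYK and CD79B followed the pan-leukocyte score over the 12 hens. Pearson's r was 0.915 for BTK (permutation p = 0.00027, adjusted p = 0.00227 over 22 relations, Spearman's rho 0.783 with permutation p = 0.00383), and 0.670 without mated hens 3 and 4, the hens farthest from the median score. For SYK r was 0.897 (permutation p = 0.00029, adjusted p = 0.00227, rho 0.748 with permutation p = 0.00656), and 0.607 without those hens. For CD79B r was 0.805 (permutation p = 0.00168, adjusted p = 0.00675, rho 0.790 with permutation p = 0.00332), and 0.698 without them. Calculated on deviations from the group means, r was 0.908, 0.933 and 0.790 for BTK, SYK and CD79B, so the relation was not only one between group means. The deviations were pooled over all groups and kept mated hens 3 and 4, so they do not show the relation in each group.

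The second CD72L1 feature gave r = 0.879 (permutation p = 0.00184, adjusted p = 0.00675, rho 0.643 with permutation p = 0.0274), which dropped to 0.429 without mated hens 3 and 4 and so rested partly on them. The first CD72L1 feature did not follow the pan-leukocyte score, at r = -0.0482 (permutation p = 0.884, rho -0.315 with permutation p = 0.32), and gave -0.686 without those hens. PIK3CD gave r = 0.611 with the pan-leukocyte score (permutation p = 0.0271, adjusted p = 0.0542, rho 0.650 with permutation p = 0.0261) and 0.630 without those hens. With the T lymphocyte score PIK3CD gave r = 0.728 (permutation p = 0.00634, adjusted p = 0.0161, rho 0.804 with permutation p = 0.00257) and 0.716 without SF-infused hen 2 and mated hen 4, the hens farthest from that score's median. The second CD72L1 feature gave r = 0.893 with that score (permutation p = 0.00055, adjusted p = 0.00302, rho 0.72 with permutation p = 0.0105) and 0.739 without the same hens. The first gave r = 0.113 (permutation p = 0.73, rho -0.0559 with permutation p = 0.87) and -0.0785 without them. RGS19 gave r = 0.676 (permutation p = 0.0124, adjusted p = 0.0272, rho 0.524 with permutation p = 0.0843) and 0.279 without them. BTK, SYK and CD79B gave r of 0.912, 0.756 and 0.765 with the T lymphocyte score, and 0.669, 0.25 and 0.574 without these hens. For the pan-leukocyte score EDG6, with r = 0.636 (permutation p = 0.0666, rho 0.133 with permutation p = 0.683), and PAX5, with r = 0.489 (permutation p = 0.114, rho 0.021 with permutation p = 0.956), had no relation left without mated hens 3 and 4, at -0.051 and -0.205. On deviations from the group means, which keep those hens, r was 0.742 for EDG6 and 0.597 for PAX5. CD72 showed no relation with that score, at r = 0.0858 (permutation p = 0.736, rho 0.266 with permutation p = 0.404): its highest hen, mated hen 3, had the lowest pan-leukocyte score. BLNK ran against the pan-leukocyte score, with r = -0.569 (permutation p = 0.0476, adjusted p = 0.0793, rho -0.594 with permutation p = 0.0449), and -0.529 without mated hens 3 and 4. RGS19 gave r = 0.562 with it (permutation p = 0.0504, rho 0.364 with permutation p = 0.245) and 0.556 without these hens.

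**Figure D3:**
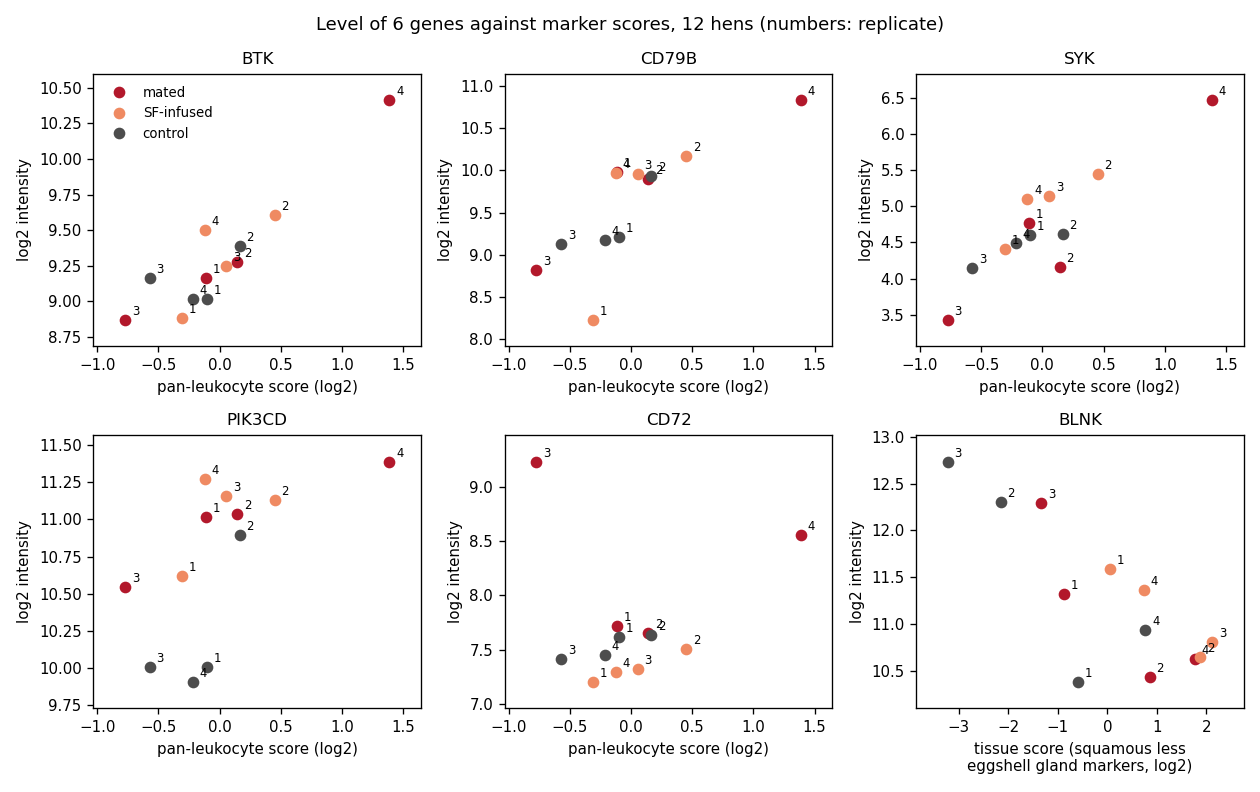
Log2 intensity (y axis) of BTK, CD79B, SYK, PIK3CD and CD72 against the pan-leukocyte score, and of BLNK against the tissue score (x axes, log2), for 12 hens coloured by group and numbered by replicate. BTK and SYK followed the leukocyte score with r of 0.915 and 0.897, CD72 did not with 0.0858, and BLNK ran against the tissue score with -0.816.

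The called differences were then refitted with the pan-leukocyte score in the model, which takes out what varies linearly with it. All 7 kept their call. PIK3CD gave 0.64 in mating versus control and 0.75 in SF-infusion versus control, RGS19 gave 0.48 and CD72 gave 0.78 in mating versus control. In mating versus SF-infusion EDG6 gave 0.90, CD72 0.96 and PAX5 0.70, and SYK became a further call as lower in mated hens, at -0.50. SYK was the dimmest member, and its level in mated hen 3 was below the random-sequence value of that array. How far leukocyte content contributes to the differences was not tested beyond this fit, and the T lymphocyte score was not put in a model. Without mated hen 4 the counts of called members were 2 in mating versus control, 3 in SF-infusion versus control and 4 in mating versus SF-infusion, where 1.58%, 7.9% and 6.79% of all features were called in the same order.

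The dissected tissue also varied between hens. The tissue score, squamous epithelium markers (8 genes, such as TP63 and KRT5) less eggshell gland markers (9 genes, such as SPP1), was -0.87, 0.86, -1.34 and 1.77 in mated hens, 0.05, 1.88, 2.12 and 0.74 in SF-infused hens and -0.60, -2.16, -3.22 and 0.77 in control hens. Control hens 2 and 3 had the lowest scores and 3 of the 4 SF-infused hens lay near or above the highest control. In SF-infusion versus control 4 of the 8 squamous markers were called as higher, against 4.15% of all features. There 5 of the 9 eggshell gland markers were called as lower, against 2.32%. The squamous marker PERP went the other way, at -0.15 and not called. Both lists were chosen with earlier results of these data known.

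BLNK ran against this score, with r = -0.816 (permutation p = 0.00117, adjusted p = 0.0129 over 11 relations, rho -0.699 with permutation p = 0.0136 and adjusted p = 0.138), -0.587 without control hens 2 and 3 and -0.873 on deviations from the group means. This score was chosen for the correlations after the values had been seen. With the tissue score in the model PIK3CD gave 0.72 in mating versus control, and in SF-infusion versus control also 0.72, with the call lost. The other 5 called differences kept their call in that model, at 0.47 for RGS19 and 0.80 for CD72 in mating versus control, and 1.12 for EDG6, 0.92 for CD72 and 0.79 for PAX5 in mating versus SF-infusion. How far tissue make-up contributes to the differences was not tested beyond these fits.

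**Figure D4:**
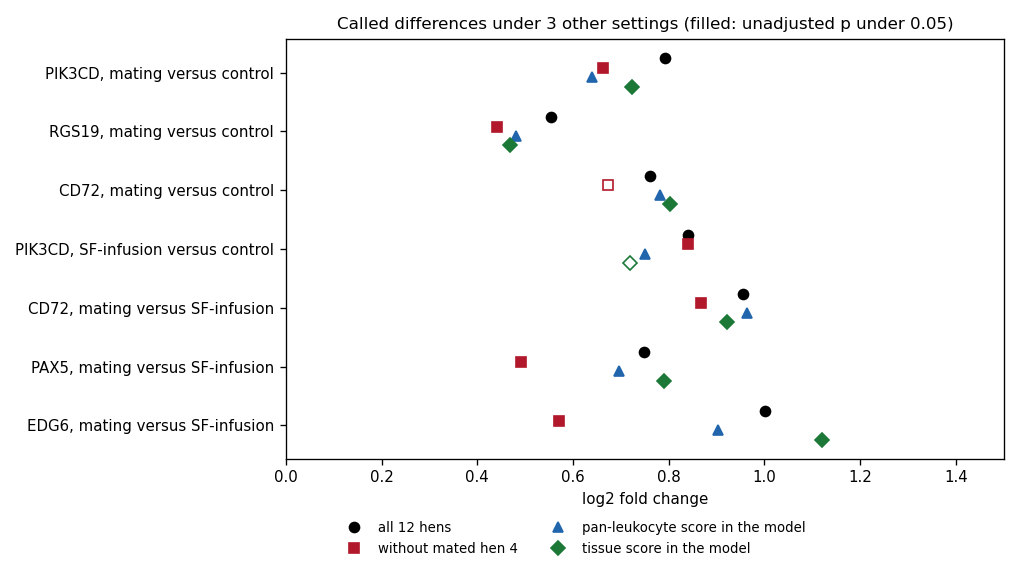
Log2 fold change (x axis) of the 7 called differences (rows) with all 12 hens, without mated hen 4, and with the pan-leukocyte or the tissue score in the model; open symbols have an unadjusted p of 0.05 or more. CD72 in mating versus control lost its call without mated hen 4 (0.67) and PIK3CD in SF-infusion versus control lost it with the tissue score (0.72), and the others stayed filled in these 3 settings.

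The other genes of the same pathways were read from lists of known components, with the brightest feature taken per gene and the same call rule. Of 29 further B cell receptor signalling genes measured, none was called in either comparison of mating, and 1 fell in SF-infusion versus control: ITPR2, a calcium release channel that is also an eggshell gland marker, at -0.59 (SE 0.24). There 2.32% of all features were called as lower. PLCG2, the phospholipase activated by BTK and BLNK, gave -0.47 in SF-infusion versus control, and the Ras exchange factor SOS2 gave 0.20. The median of the 29 genes was 0.10 in mating versus control, 0.06 in SF-infusion versus control and 0.03 in mating versus SF-infusion. Of 23 further B lymphocyte identity genes none was called, with medians of 0.12, 0.04 and 0.09 in the same order. CXCR5, the receptor that guides B cells into follicles, gave 0.69 (SE 0.34) in mating versus control, and the B cell survival factor TNFSF13B gave 1.21 (SE 0.60) in SF-infusion versus control.

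Among the B lymphocyte markers, of which PAX5 is 1, PAX5 was called in mating versus SF-infusion, against 2.04% of all features called as higher. None was called against control. The CD72 symbol was represented in this list by its brightest feature, the first CD72L1 feature. The calls of the CD72 feature given above are therefore not counted here. TNFRSF13B, a receptor for B cell survival factors, gave 0.31 in mating versus SF-infusion. Every one of the 11 markers stayed above the random-sequence value of every array, the lowest level being 4.75 for PAX5, which does not by itself show detection. POU2AF1, a transcriptional coactivator of B and plasma cells, averaged 10.63 in mated hens, 10.78 in SF-infused hens and 10.65 in control hens, and the immunoglobulin J chain gene IGJ lay between 12.29 and 13.99 over the 12 hens, neither called.

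Among 13 other kinases of the Tec, Syk and Src families, 1 was called: TEC fell by 0.64 (SE 0.27) in SF-infusion versus control, with -0.55 in mating versus control. In SF-infusion versus control 2.32% of all features were called as lower. ZAP70, the T cell relative of SYK, gave 0.80 (SE 0.43) in mating versus control, and FRK gave -0.35 in SF-infusion versus control. Among 13 other class I PI3-kinase subunits and opposing phosphatases none was called in any comparison. The regulatory subunit PIK3R3 gave -0.28 in SF-infusion versus control and the lipid phosphatase INPPL1 gave 0.41 in mating versus control.

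On the G-protein side, none of 8 other sphingosine-1-phosphate receptor and metabolism genes was called. The phosphatases that degrade the lipid inside cells gave 0.66 (SE 0.31) for SGPP2 and -0.32 (SE 0.18) for SGPP1 in SF-infusion versus control. Of 16 other RGS proteins and inhibitory G alpha subunits, RGS4 and RGS2 rose in SF-infusion versus control, by 0.97 (SE 0.39) and 0.50 (SE 0.20), against 4.15% of all features called as higher. None was called in mating versus control. RGS8 and RGS16 gave 0.65 and 0.93 in SF-infusion versus control.

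Markers of other leukocytes were mostly not called. Neither the 10 pan-leukocyte nor the 15 T lymphocyte genes held a call in any comparison, although 9 and 14 of them were above 0 in mating versus control, with medians of 0.39 and 0.52. Of all features 50.2% were above 0 there, with a median of 0.0007. In SF-infusion versus control 9 of the pan-leukocyte and 13 of the T lymphocyte genes were above 0, with medians of 0.25 and 0.40, against 51.7% and 0.0089 over all features. PTPRC gave 0.64 (SE 0.44), ZAP70 0.80 as above and CD8B 0.73 (SE 0.39) in mating versus control. Each of these genes had its highest value in mated hen 4. Of 12 macrophage and heterophil genes, CEBPB, a myeloid transcription factor, rose by 0.37 (SE 0.15) in mating versus control, and CD14, the lipopolysaccharide co-receptor, was higher in mated than in SF-infused hens by 0.32 (SE 0.13). Of all features 1.35% and 2.04% were called as higher in these comparisons.

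Likeness of pattern was measured for the 5 called members as Pearson's r over the 12 arrays with 12075 named genes. PIK3CD was most like SH2D4A (r = 0.899, rho 0.888), PSCDBP (0.877, rho 0.909) and GRK4 (0.873, rho 0.825). RGS19 was most like GBX2 as named on the array (0.877, rho 0.769), ARPC5 (0.865, rho 0.900) and CUBN (0.864, rho 0.762). EDG6 was most like SPIC, ART1 and CHRM2, with r of 0.937, 0.934 and 0.933 and rho of 0.797, 0.923 and 0.664. PAX5 was most like LMX1B, RHOH and CHRM2, with r of 0.906, 0.889 and 0.888 and rho of 0.951, 0.902 and 0.790. CD72 was most like CACNG7, ACTL9 and a gene known only as B4ER10 on the array, with r of 0.944, 0.892 and 0.860 and rho of 0.685, 0.958 and 0.587. These are the highest of many values, and the hens with extreme levels weigh in each of them. SPIC and CHRM2 were also very dim, each with a mean log2 level of 4.16, where the random-sequence values of the arrays lay between 3.81 and 3.95.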

How the data were processed

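Messenger RNA of the UVJ was measured on custom NimbleGen chicken arrays with Cy3-labelled cDNA, 1 array per hen, in 4 mated, 4 SF-infused and 4 control hens. The deposited values are intensities on a linear scale, which the authors made by RMA (background adjustment, quantile normalisation between arrays, summarisation over probes); of genome build and annotation, nothing is given in the sources used here. RMA and limma are also listed in the submitters' processing notes. Array medians lay between 1077 and 1102. The series value table held 37364 of the 37374 features, with identical values. RMA sets equal distributions, so a change of total RNA per cell is not visible.

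Intensities were log2-transformed with no pseudocount and fitted with limma 3.58.1 in R 4.3.3 as a mean per group over all 12 arrays, with p-values adjusted (Benjamini-Hochberg) over all 37374 features; the script was tested on simulated data. Exact permutation tests are two-sided, and correlations used 100000 resamples, two-sided. The members, the marker and pathway lists and the tests were chosen with earlier results of these data known. Beyond the members, the text names in each list up to 4 genes with the smallest p under 0.05 and up to 2 others with the smallest p, and the 3 genes most like each called member. POU2AF1 and IGJ were named after their values were seen. Alternatives were other normalisations, an added offset of 50, filters on dim features, the fit of only the 2 groups, array weights, trended robust moderation, the replicate number as a block, the scores as covariates, and leaving out each hen. The number of arrays limits the precision.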

Additional observations from a re-analysis of the deposited data

Results flagged for a closer look

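Single hens stood apart from the other 3 of their group in 3 of the 33 groups examined (11 features in 3 groups), where chance alone gives about 1 in 20. For CD79B, SF-infused hen 1 was low, its gap to the nearest hen making up 0.895 of the group's range. For CD79B, control hen 2 was high, with a gap of 0.901 of the range. For PIK3CD, control hen 2 was high, with a gap of 0.898. Without control hen 2, PIK3CD was higher by 1.02 in mating versus control and by 1.07 in SF-infusion versus control. The critical value for 4 samples is 0.829.

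In the direct comparison of mated with SF-infused hens, 3 features were called at an unadjusted threshold. Of all features 2.04% were called as higher there and 2.66% as lower. The difference was 1.00 for EDG6, 0.75 for PAX5 and 0.95 for CD72 on the log2 scale. In each case 4 of 4 mated hens lay above all SF-infused hens, where 1.54% of all features were separated this way and 1.5% the other way. None passed adjustment over all features (adjusted p = 0.925, 0.868 and 0.855 in limma). Mating versus control gave 0.66, 0.38 and 0.76 in the same order, only CD72 being called. SF-infusion versus control gave -0.34, -0.37 and -0.19, none called.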

How the results depend on the processing

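Of the 7 called differences, CD72 in mating versus control lost its call under 5 alternatives, given with the result except for the fit of only the 2 groups, PIK3CD in SF-infusion versus control lost it with the tissue score and in the exact test, and PIK3CD in mating versus control lost it in the exact test alone. EDG6, CD72 and PAX5 in mating versus SF-infusion kept their call in every alternative in which they were tested. Median centring, quantile normalisation, the offset, the series table and trended robust moderation changed no call or direction of a member. With only the 2 groups fitted, PAX5, SYK and RGS19 passed in SF-infusion versus control, where the share of all features passing in that fit is not given here. Without mated hen 1, EDG6 (0.87) and PAX5 (0.53) passed in mating versus control, and without mated hen 4 PAX5 and RGS19 passed in SF-infusion versus control.

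Uncalled differences changed sign under some settings. With the tissue score these were SYK -0.22 and BLNK 0.30 in mating versus control, CD79B -0.41, SYK -0.26, the first CD72L1 feature 0.29, BTK -0.18 and BLNK 0.80 in SF-infusion versus control, and PIK3CD 0.0057, SYK 0.0388, the first CD72L1 feature -0.0148 and BLNK -0.50 in mating versus SF-infusion. With array weights they were the first CD72L1 feature -0.24 in mating versus control, and PIK3CD 0.022, the first CD72L1 feature -0.0826 and BLNK -0.11 in mating versus SF-infusion. With the pan-leukocyte score it was SYK -0.20 in mating versus control. The cause was not tested.

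Leaving out each hen in turn changed the sign of some uncalled differences. In mating versus control SYK ranged between -0.35 and 0.66, the first CD72L1 feature between -0.17 and 0.34, the second between -0.0424 and 0.90 and BTK between -0.0428 and 0.47. In SF-infusion versus control the first CD72L1 feature ranged between -0.34 and 0.16 and the second between -0.19 and 0.0795. In mating versus SF-infusion the ranges were -0.15 to 0.66 for CD79B, -0.19 to 0.10 for PIK3CD, -0.91 to 0.11 for SYK, -0.07 to 0.33 for the first and -0.0041 to 0.94 for the second CD72L1 feature, -0.21 to 0.31 for BTK and -0.31 to 0.31 for BLNK.

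With array weights 1862 features were called in mating versus control, 4064 in SF-infusion versus control and 2817 in mating versus SF-infusion. In the same order the count was 391, 1597 and 728 with features above the 25th percentile of level. Above the median it was 191, 1081 and 370. These filters left fewer features to test, 28030 and 18687. The share called was also smaller than among all features, in each comparison and with either filter. The count was 1435 in mating versus control with the tissue score and 2651 in mating versus SF-infusion with the pan-leukocyte score. Leaving out each hen gave 589 to 2108, 1502 to 3505 and 1256 to 2537. The count of called members was 1 in mating versus control and 0 in mating versus SF-infusion above the median level, where most members are not tested. In SF-infusion versus control it was 4 with only the 2 groups and 0 with the tissue score. The share of all features called in those fits is not given here, so these counts have no background beside them. Leaving out each hen gave 2 to 5, 1 to 3 and 3 to 4 called members.

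The labels do not say whether the replicate numbers pair hens across groups, and they were not treated as pairs: of 12 same-numbered pairs, 4 correlated above 0.1 (range -0.362 to 0.624). Of the 4 mated and control pairs, 3 did (0.178, 0.624 and 0.511), and in these 3 the best match had the same number. No other of the 12 pairs had such a best match, and the SF-infused and control pairs all correlated negatively (-0.112 to -0.35). These values do not show pairing. With the number as a block, 940, 2649 and 1827 features and 3, 1 and 3 members were called.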
